A study of Mus musculus with 10 samples.

Results

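The 54 genes described here encode membrane carriers of the Slc1, Slc6, Slc16, Slc36, Slc38 and Slc43 families, measured in whole hearts of female mice 13.5 days after conception. They were taken by gene symbol from the array annotation, out of 18193 genes with a probe set of their own. The rule uses symbols only, but these families were picked with earlier results of these data known. The families hold 7, 18, 13, 4, 9 and 3 measured genes. Most of these proteins carry amino acids or neurotransmitters, but the Slc16 proteins carry mainly monocarboxylates and Slc43a3 carries purine nucleobases, so the set is wider than amino acid transport.

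The tested hearts came from embryos with a heterozygous, heart-conditional knockout of Hccs, which encodes holocytochrome c synthase, the haem lyase of mitochondrial c-type cytochromes. The other hearts came from control littermates, and there were 5 arrays per genotype, each from a pool of 4 to 5 hearts. Hccs is X-linked and subject to X inactivation, so knockout hearts mix cells that lack the enzyme with cells that keep it, and an array reads the sum of both. The sources used here name neither the Cre driver nor the alleles that the control littermates carry. The question is which carriers differ in transcript level in the mosaic heart.

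Carriers of these families move amino acids across the plasma membrane and the lysosomal membrane, mostly driven by sodium or proton gradients or by exchange. Slc1 and Slc38 carriers supply cells with small neutral amino acids, glutamine and glutamate, and several of their genes respond to amino acid shortage through the transcription factor ATF4. Slc6 carriers clear neurotransmitters from synapses in the nervous system, while in muscle the family's taurine and creatine carriers are the ones best known. Slc16 carriers let lactate and pyruvate pass, which matters in a heart that uses much lactate.

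Values are log2 signals of probe sets, and a difference is always knockout minus control on that scale. Signals of different probe sets cannot be read as relative amounts of transcript. As a rough mark of a signal with no transcript behind it, the 9 measured Y-linked genes had levels between 1.75 and 3.72 in these female hearts. The higher group mean of 24 carriers lay at or below that highest Y-linked level, and 30 lay above it. Hccs itself had a log2 signal of 10.68 ± 0.20 in knockout and 11.23 ± 0.08 in control hearts (mean ± SD, n = 5 each), without overlap of the groups (exact two-sided permutation p = 0.00794, the smallest this design allows). Where its probes lie relative to the deleted part was not given, so this checks the labels only in part. Array medians lay between 3.65 and 3.73 in knockout and between 3.66 and 3.76 in control arrays.

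The 2 arrays numbered 3 stood apart in markers of other tissues. The mean signal of 6 lung or foregut markers was 6.47 in knockout replicate 3, against 3.32 to 4.33 in the other knockout arrays and 3.06 to 4.56 in control arrays. The mean of 10 neuron and glia markers was 5.46 in control replicate 3, against 3.90 to 4.41 in the other controls and 3.90 to 4.26 in knockout arrays. Other arrays stood apart in megakaryocyte and platelet markers. The mean of these 5 markers was 7.24 and 7.33 in knockout replicates 1 and 5. It was 6.20 to 6.64 in the other knockout arrays and 6.11 to 6.37 in control arrays. The 18S ribosomal RNA 5' control signal was 7.84 to 8.57 in knockout arrays and 9.88 to 11.45 in control arrays other than replicate 3, which had 8.06. Its 3' control signal overlapped more widely, at 8.01 to 8.93 in knockout and 7.57 to 11.07 in control arrays. The 3' minus 5' signals of Gapdh and Actb overlapped between genotypes too. None of the 6 lung or foregut markers and none of the 10 neuron and glia markers passed an adjusted p of 0.05 by limma. None of either list had an unadjusted p under 0.05. Only 3 of the 6 and 6 of the 10 had a group mean above the highest Y-linked level. A rise in 1 array widens its group's spread (SD of Sftpc 1.94 in knockout, of Tubb3 2.01 in control arrays). This group test therefore cannot decide on differences confined to single arrays. Cardiomyocyte markers ran lower, with all 12 differences negative, 5 of 12 called lower and none higher. An unadjusted p under 0.05 was reached by 11 of them, and 7 did not overlap between the groups. Over all genes 0.945% were called lower and 1.63% higher, 20.6% had an unadjusted p under 0.05 and 5.79% did not overlap. The mean cardiomyocyte marker signal was 14.16 to 14.37 in knockout and 14.51 to 14.70 in control arrays. Of the other lists, 1 of 8 epicardial markers (Tcf21) was called higher. None of 10 endothelial, 7 fibroblast, 6 smooth muscle, 8 macrophage, 7 erythroid and 5 megakaryocyte and platelet markers passed. In that order 4, 0, 3, 1, 2 and 1 of these had an unadjusted p under 0.05. The 4 endothelial ones were all lower (Kdr -0.46, Tie1 -0.31, Cdh5 -0.29 and Npr3 -0.19), as were Acta2, Cnn1, Alas2 and Epor. Pdgfrb (0.45), C1qb (0.51) and Gp9 (1.55) were higher, and the groups did not overlap for Pdgfrb and Gp9. The part of cell composition in the results below was not tested, and in whole hearts fewer cells of a type cannot be told apart from less RNA per cell.

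The promoters of both carriers that passed the test are shown first, with the short motifs of the ATF and CREB type found in them, a different one in each. The motifs were chosen with earlier results of these data known. The windows run from 250 bases before to 50 bases after the RefSeq transcription start in build GRCm38.p6, 5′ to 3′ on the gene's strand, and capitals mark the motif. The Slc1a4 window is chr11:20332664-20332963 on the minus strand, and the Slc38a6 window is chr12:73286598-73286897 on the plus strand.
Slc1a4: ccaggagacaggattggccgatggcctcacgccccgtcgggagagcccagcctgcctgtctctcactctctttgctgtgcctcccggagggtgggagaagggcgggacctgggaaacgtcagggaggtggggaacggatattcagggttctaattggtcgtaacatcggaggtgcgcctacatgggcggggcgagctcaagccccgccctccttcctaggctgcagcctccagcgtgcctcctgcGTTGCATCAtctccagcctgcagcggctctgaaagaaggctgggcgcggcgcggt
Slc38a6: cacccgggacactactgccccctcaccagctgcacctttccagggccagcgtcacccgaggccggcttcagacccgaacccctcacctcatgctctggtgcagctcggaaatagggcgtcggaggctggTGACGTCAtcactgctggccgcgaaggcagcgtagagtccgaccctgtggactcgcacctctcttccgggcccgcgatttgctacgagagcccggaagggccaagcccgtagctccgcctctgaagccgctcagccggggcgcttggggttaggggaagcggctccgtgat

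Motifs were searched on both strands of every RefSeq promoter window. The first, TGATGNAAN, is the core of the C/EBP-ATF response element, through which ATF4 acts on genes of amino acid supply. It occurred in 3.95% of 32851 windows. Slc1a4 held it on the opposite strand. On the gene's strand the match begins 5 bases before the start and runs across it. The second, TGATGNAAT, is a stricter form contained in the first and occurred in 0.965% of windows, not in either of these 2. The third, TGACGTCA, is the palindromic site of CREB and ATF dimers and occurred in 1.79% of windows. Slc38a6 held it 121 bases before the start. A promoter was listed for 39 of the 54 carriers. Among these, the first motif was found for 2 (Slc1a4 and Slc6a21), the second for 1 (Slc6a21) and the third for 1 (Slc38a6), too few to set the carriers apart from the shares over all windows. A match is a string of letters, not a bound site.

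Of the 54 carriers, 1 was called higher (Slc1a4) and 1 lower (Slc38a6) in knockout hearts, and 52 did not pass a limma adjusted p of 0.05. Over all genes 2.58% passed, 1.63% higher and 0.945% lower. An unadjusted p under 0.05 was reached by 12 carriers, which is 22.2% of them, beside 20.6% of all genes. The groups did not overlap for 4 carriers (Slc1a4, Slc38a6, Slc38a5 and Slc16a12), beside 5.79% of all genes. The median difference of the carriers was 0.0192, beside 0.0248 for all genes. By family it was 0.0722 for Slc1, -0.00401 for Slc6, 0.0319 for Slc16, 0.0319 for Slc36, 0.0154 for Slc38 and 0.105 for Slc43. Differences ran from -1.06 for Slc16a4 to 0.59 for Slc1a4.

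**Figure D1:**
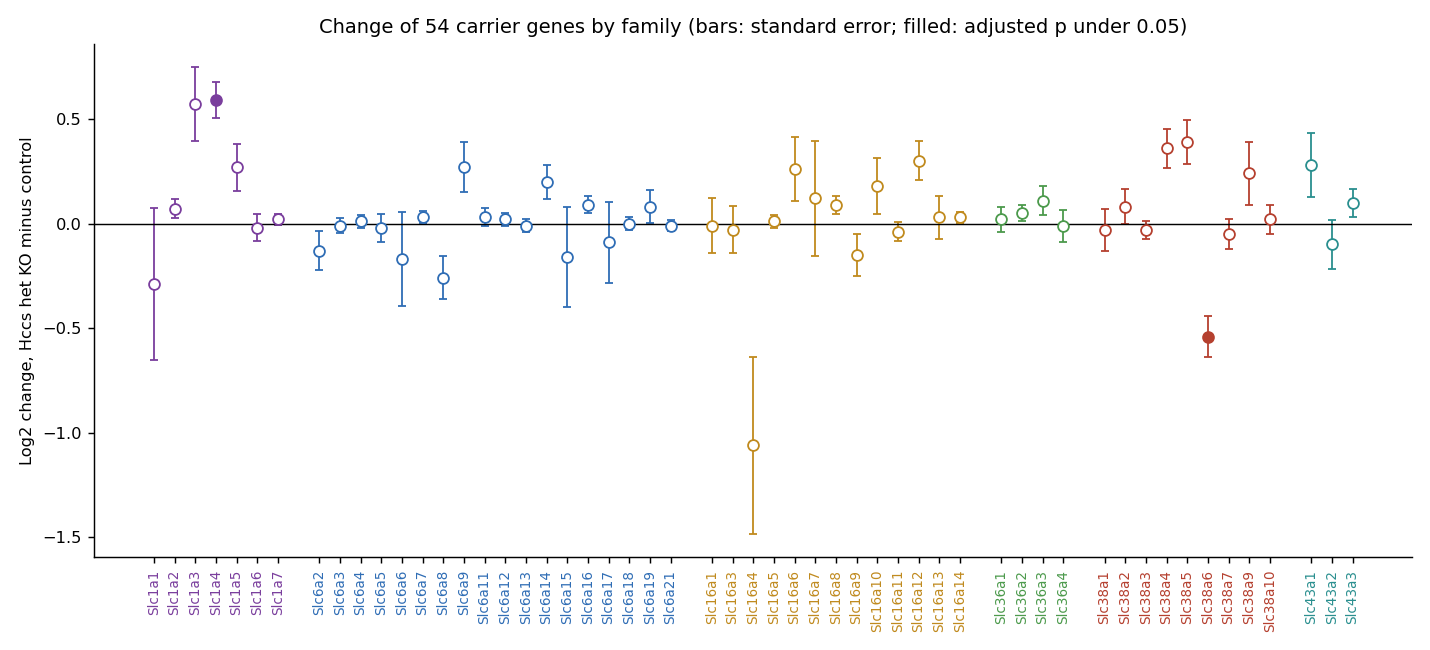
Log2 difference, knockout minus control (y axis), of the 54 carriers grouped by family along the x axis; bars are standard errors of the limma fit, and filled points passed an adjusted p of 0.05. Slc1a4 (0.59) and Slc38a6 (-0.54) are the filled points, and Slc16a4 (-1.06) has a difference with a wide error bar.

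Of the 7 measured Slc1 genes 1 was called higher and none lower, and 3 had an unadjusted p under 0.05. Slc1a4 encodes a sodium-dependent exchanger of alanine, serine, cysteine and threonine. Its log2 signal was 8.20, 8.20, 8.37, 8.46 and 8.45 in knockout replicates 1 to 5, against 7.92, 7.51, 7.83, 7.81 and 7.65 in control replicates 1 to 5. Every knockout array lay above every control array. The transcript rose 1.51-fold, a log2 difference of 0.59 (SE 0.0877, limma adjusted p = 0.0179). All 3 of its probe sets pointed the same way. The second averaged 6.27 ± 0.26 in knockout and 5.61 ± 0.35 in control hearts (SD, n = 5 each, difference 0.66, adjusted p over all probe sets by limma = 0.0939). The dimmest had 4.76, 5.51, 5.99, 5.20 and 5.27 in knockout arrays, against 4.53, 3.97, 4.04, 3.83 and 4.00 in control arrays. Its difference was 1.27 (limma adjusted p = 0.0285 over all probe sets), larger than that of the brightest probe set, and its groups did not overlap either.

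The rise of Slc1a4 stayed past the threshold with any 1 array left out, with differences from 0.53 to 0.64 and limma adjusted p from 0.00998 to 0.0459. Without both arrays numbered 3 the difference was 0.60 and the limma adjusted p 0.0822.

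Slc1a5 encodes the closest relative of Slc1a4, an exchanger that takes up glutamine. Its signal was 8.43, 8.75, 8.34, 8.48 and 8.49 in knockout arrays, against 7.98, 8.44, 8.48, 8.05 and 8.19 in control arrays. The groups overlapped through control replicates 2 and 3. The difference of 0.27 (SE 0.112) did not pass (limma adjusted p = 0.214), and its 95% interval ran from 0.02 to 0.52. The second Slc1a5 probe set was at 2.23 in knockout and 2.24 in control hearts, under the Y-linked mark.

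The other 5 measured Slc1 genes encode glutamate carriers of high affinity, best known from glia and neurons. Slc1a3, the glial carrier GLAST, had signals of 6.72, 6.34, 6.84, 6.37 and 6.24 in knockout arrays, against 6.27, 5.37, 5.97, 6.16 and 5.91 in control arrays. The knockout arrays were high, but control replicate 1 lay above knockout replicate 5. The difference was 0.57 (SE 0.177), similar in size to that of Slc1a4 with a wider spread, and it did not pass (limma adjusted p = 0.123). Its second probe set, averaging 4.08 ± 0.65 in knockout and 3.53 ± 0.17 in control hearts (SD, n = 5 each), had a difference of 0.55. That difference came from knockout replicates 3 and 5, at 4.76 and 4.81. Knockout replicates 1, 2 and 4, at 3.43, 3.79 and 3.62, lay within the control range of 3.36 to 3.80. Slc1a1, a glutamate carrier that also takes up cysteine, ranged from 3.13 to 5.30 in knockout and from 4.53 to 5.33 in control arrays, with a difference of -0.29 (SE 0.362). Slc1a2, Slc1a6 and Slc1a7 had group means from 1.65 to 2.47, under the Y-linked mark, with differences of 0.07, -0.02 and 0.02.

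**Figure D2:**
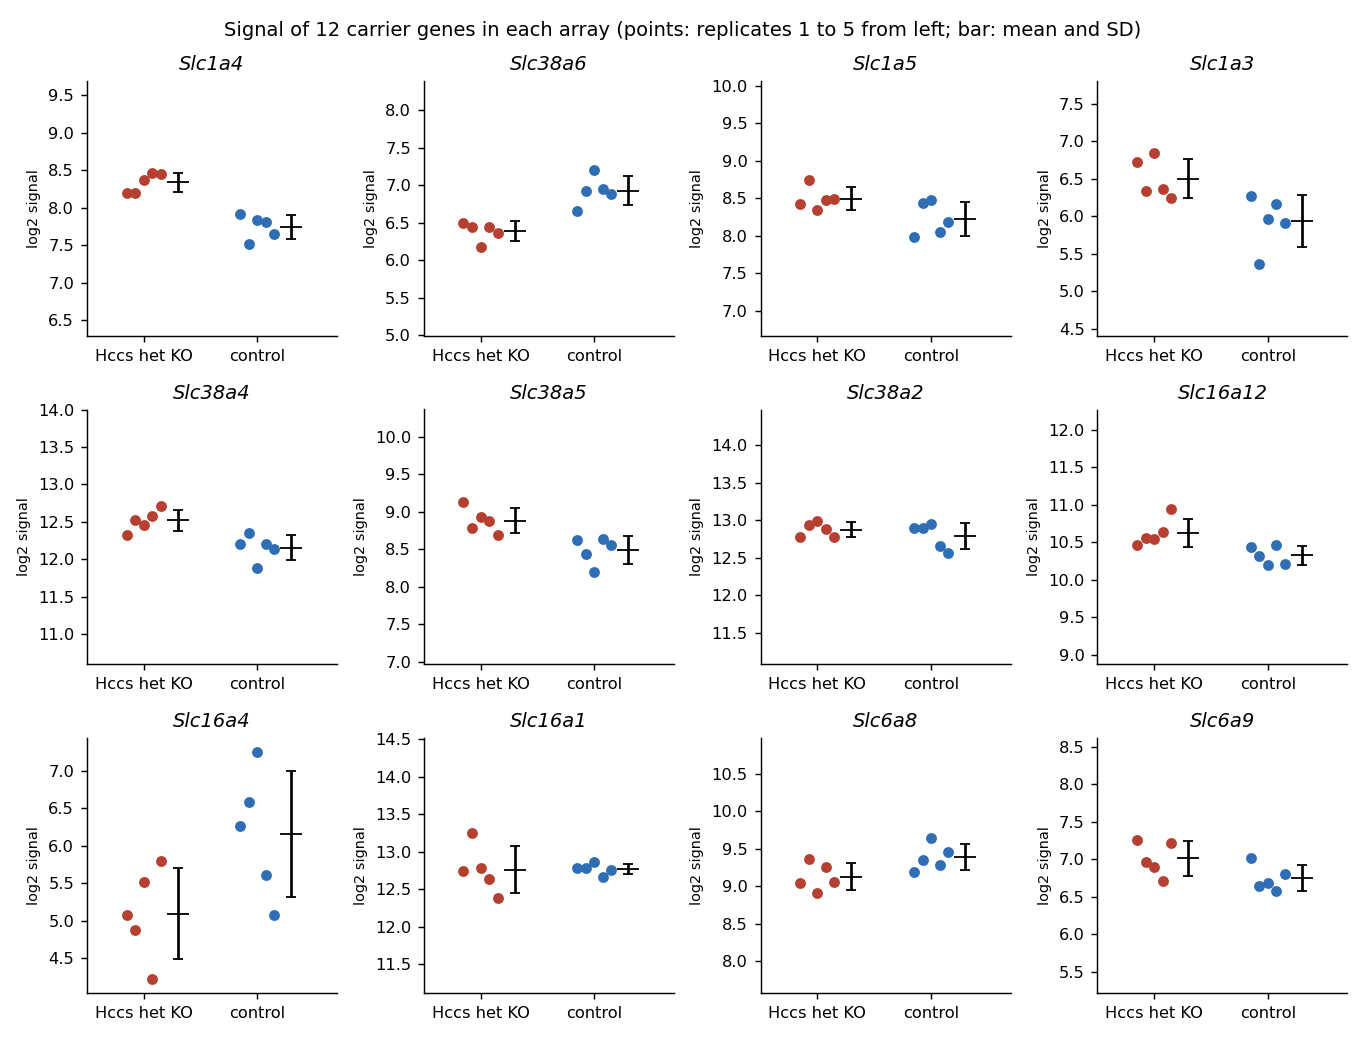
Log2 signal (y axis, spanning the same number of log2 units in every panel) of 12 carriers in each array, knockout left of control; points are replicates 1 to 5 from the left of each group, and the bar gives the mean and SD. Knockout and control points are fully apart for Slc1a4, Slc38a6 and Slc38a5, meet for Slc16a12 at 10.46, and overlap for the others.

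The Slc38 family carries glutamine, alanine and other small neutral amino acids with sodium. Of 9 measured members 1 fell, none rose and 8 did not pass, and 3 had an unadjusted p under 0.05. Slc38a6, a less studied member for which glutamine and glutamate have been given as substrates, was the one that fell. Its signal was 6.50, 6.45, 6.17, 6.45 and 6.37 in knockout arrays, against 6.66, 6.92, 7.21, 6.95 and 6.89 in control arrays. The groups did not overlap, and the gap between knockout replicate 1 and control replicate 1 was small. The transcript fell by 31.1%, a difference of -0.54 (SE 0.0987, limma adjusted p = 0.0289).

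The call of Slc38a6 was lost without knockout replicate 2, 3, 4 or 5 (limma adjusted p = 0.0574, 0.0581, 0.0617 and 0.0575) and without control replicate 2, 3 or 4 (adjusted p = 0.0613, 0.0511 and 0.065), with differences between -0.60 and -0.47 over the 10 fits. Replicates 3 were the lowest knockout and the highest control array. Without both, the difference was -0.41 and the limma adjusted p 0.0815. The second Slc38a6 probe set was at 1.97 ± 0.06 in knockout and 1.93 ± 0.05 in control hearts (SD, n = 5 each), under the Y-linked mark, so the fall rests on a single probe set.

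System A carriers take up small neutral amino acids, and Slc38a2 is the one known for its induction when amino acids run short. Its signal was 12.77, 12.94, 12.99, 12.88 and 12.77 in knockout arrays, against 12.90, 12.89, 12.95, 12.66 and 12.56 in control arrays. The arrays of both groups were interleaved. The difference was 0.08 (SE 0.0832, limma adjusted p = 0.614), with a 95% interval from -0.11 to 0.26. Its other probe sets had differences of -0.09 and 0.03.

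Slc38a4, a system A gene that is imprinted in the mouse, had signals of 12.32, 12.53, 12.46, 12.58 and 12.71 in knockout arrays, against 12.20, 12.35, 11.89, 12.21 and 12.14 in control arrays. Only control replicate 2 reached into the knockout range, above knockout replicate 1. The difference was 0.36 (SE 0.0922, limma adjusted p = 0.0701). It passed without knockout replicate 1 (difference 0.41, adjusted p = 0.0349), and without both arrays numbered 3 the adjusted p was 0.183. Its second probe set had a difference of 0.20.

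Slc38a5, an X-linked system N carrier of glutamine, had signals of 9.13, 8.78, 8.93, 8.88 and 8.69 in knockout arrays, against 8.62, 8.44, 8.20, 8.64 and 8.56 in control arrays. All knockout arrays were above all controls, by a small margin. The difference was 0.39 (SE 0.103, limma adjusted p = 0.08). The adjusted p was 0.235 without the arrays numbered 3, and it ran from 0.0808 to 0.161 with 1 array left out. Values of Slc38a4 and Slc38a5 by array were chosen for printing after they were seen.

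Probe sets of Slc38a1, another system A carrier, disagreed. The brighter one averaged 11.64 ± 0.14 in knockout and 11.67 ± 0.20 in control hearts (SD, n = 5 each), with a difference of -0.03 (SE 0.10). The other had 9.43, 9.05, 8.95, 8.83 and 8.83 in knockout arrays, against 9.59, 9.90, 9.74, 9.69 and 9.39 in control arrays. It was lower in knockout hearts by a difference of -0.65 (limma adjusted p = 0.0441 over all probe sets), with overlap through knockout replicate 1 and control replicate 5. Which transcript forms these probe sets read is not known here. This second probe set was singled out after its values were seen.

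**Figure D3:**
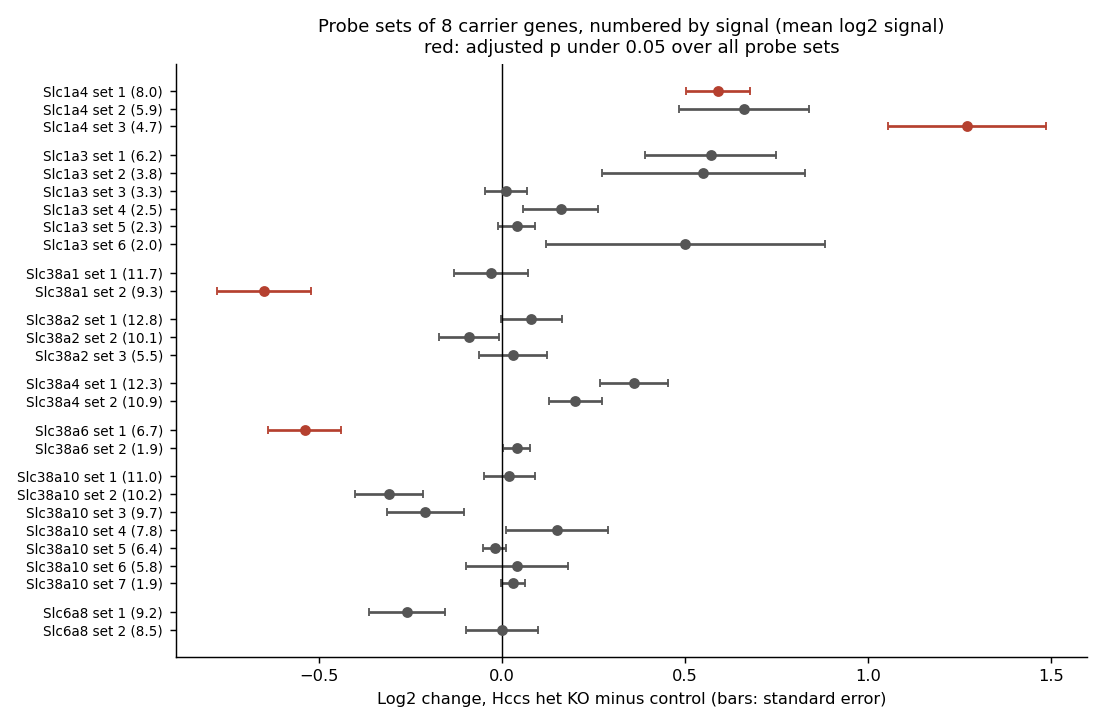
Log2 difference, knockout minus control (x axis, bars are standard errors), of every probe set of 8 carriers, numbered by signal with the mean log2 signal in brackets. All 3 Slc1a4 probe sets lie right of 0, while those of Slc38a1, Slc38a6 and Slc38a10 differ in size or direction; red points passed an adjusted p of 0.05 over all probe sets.

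The remaining Slc38 genes act mainly at lysosomes or are less studied. Slc38a9, the lysosomal arginine sensor upstream of mTOR complex 1, averaged 7.20 ± 0.23 in knockout and 6.96 ± 0.29 in control hearts (SD, n = 5 each), with a difference of 0.24 (SE 0.15). Of its 7 probe sets the brighter pair, the ones well above the Y-linked mark, had differences of 0.24 and 0.11. One close to the mark, at 3.56 in knockout and 3.78 in control hearts, had -0.22, and the most variable one, at 2.86 in knockout and 3.21 in control hearts, lay under that mark. Slc38a7, which exports glutamine and asparagine from lysosomes, had a difference of -0.05 (SE 0.0738). Slc38a10 had a difference of 0.02 on its brightest probe set (SE 0.0688), while the next in signal of its 7 had -0.31 and -0.21. Slc38a3, a system N carrier of liver and brain, was at 2.55 in knockout and 2.57 in control hearts, under the Y-linked mark.

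Slc36 carriers export or take up amino acids, some of them with protons. None of the 4 passed, and none had an unadjusted p under 0.05. Slc36a4 had signals of 8.78, 8.58, 8.94, 8.70 and 8.62 in knockout arrays, against 8.81, 8.84, 8.70, 8.73 and 8.57 in control arrays, a difference of -0.01 (SE 0.0765). Slc36a1, the lysosomal member, averaged 6.89 ± 0.09 in knockout and 6.87 ± 0.10 in control hearts (SD, n = 5 each), with a 95% interval of the difference from -0.12 to 0.15. Slc36a3 had 2.67, 2.66, 2.66, 2.69 and 3.02 in knockout arrays, against 2.66, 2.61, 2.65, 2.59 and 2.66 in control arrays. Slc36a2 lay at 2.67 in knockout and 2.63 in control hearts, so both were under the Y-linked mark.

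Slc43a1 and Slc43a2 carry large neutral amino acids without sodium. None of the 3 Slc43 genes passed. Slc43a1 had signals of 6.19, 5.90, 6.06, 5.53 and 6.31 in knockout arrays, against 5.99, 5.36, 5.78, 5.73 and 5.73 in control arrays, and its groups overlapped. The difference was 0.28 (SE 0.155, limma adjusted p = 0.336). Slc43a2 had a difference of -0.10 (SE 0.118). Slc43a3, which carries purine nucleobases, had signals of 9.0, 8.94, 8.98, 8.90 and 9.05 in knockout arrays, against 8.98, 8.64, 8.86, 8.87 and 8.99 in control arrays. Its difference of 0.10 had a 95% interval from -0.04 to 0.25.

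None of the 18 Slc6 genes passed, and 4 had an unadjusted p under 0.05. Slc6 carriers of neurotransmitters were mostly within the Y-linked range. The dopamine (Slc6a3), serotonin (Slc6a4) and noradrenaline (Slc6a2) carriers had group means from 2.14 to 3.03. Those of the neuronal glycine carrier Slc6a5 and the GABA carrier Slc6a11 lay between 2.22 and 2.63. All 5 were under the Y-linked mark, with differences from -0.13 to 0.03. The glycine carrier Slc6a9 was the one above it, at 7.26, 6.96, 6.90, 6.71 and 7.22 in knockout arrays, against 7.02, 6.64, 6.68, 6.58 and 6.80 in control arrays. Its groups overlapped, and the difference of 0.27 (SE 0.119) did not pass (limma adjusted p = 0.24). Its second probe set averaged 4.78 in both groups, with a difference of 0.00.

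Carriers of taurine and creatine are the Slc6 proteins best known from heart muscle. The taurine carrier Slc6a6 had signals of 10.47, 9.89, 9.97, 9.81 and 9.18 in knockout arrays, against 9.55, 10.33, 10.24, 9.97 and 10.10 in control arrays. The knockout arrays spread widely on both sides of the controls. The difference was -0.17 (SE 0.225), with a 95% interval from -0.68 to 0.33, so neither a moderate fall nor a smaller rise was excluded. The X-linked creatine carrier Slc6a8 had 9.04, 9.36, 8.91, 9.25 and 9.05 in knockout arrays, against 9.19, 9.35, 9.64, 9.28 and 9.45 in control arrays. Its difference was -0.26 (SE 0.103, limma adjusted p = 0.202), and -0.14 without the arrays numbered 3. Its second probe set averaged 8.48 in knockout and 8.47 in control hearts, a difference of 0.00. The betaine and GABA carriers Slc6a12 and Slc6a13 had group means from 2.20 to 2.24, under the Y-linked mark.

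Of the 8 amino acid and orphan carriers of the Slc6 family none passed. Slc6a14, a carrier of neutral and cationic amino acids, had 3.49, 3.88, 3.54, 3.77 and 3.59 in knockout arrays, against 3.51, 3.31, 3.36, 3.52 and 3.54 in control arrays. Both group means lay under the Y-linked mark, and the difference of 0.20 did not pass (limma adjusted p = 0.201). Slc6a15, a neuronal carrier of branched-chain amino acids and proline, reached 4.13 in control replicate 3, the array with the high neuron and glia markers, against 2.71 to 3.18 in the other controls and 2.82 to 3.29 in knockout arrays. Slc6a17, a synaptic vesicle carrier, averaged 4.48 ± 0.43 in knockout and 4.57 ± 0.20 in control hearts (SD, n = 5 each). Slc6a7, Slc6a16, Slc6a18, Slc6a19 and Slc6a21 lay between 1.71 and 3.48, all under the Y-linked mark, with differences from -0.01 to 0.09.

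**Figure D4:**
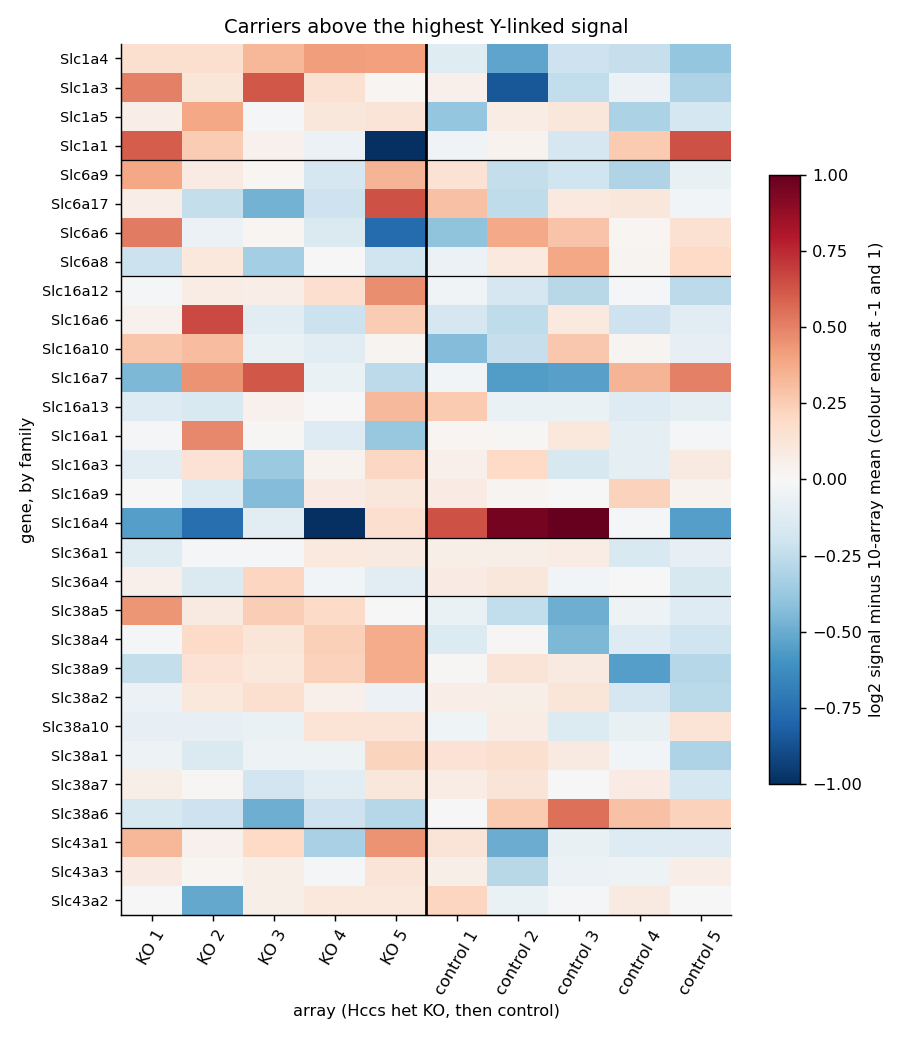
Log2 signal minus the 10-array mean (colour) of the 30 carriers above the highest Y-linked level, in rows by family and by falling difference, with the 5 knockout arrays left of the 5 control arrays. Slc1a4 is above its mean in all knockout arrays and below it in all control arrays, and Slc16a4 had its highest signal, 7.25, in control replicate 3.

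The Slc16 family carries lactate, pyruvate and other monocarboxylates, and single members carry thyroid hormone, aromatic amino acids, carnitine or creatine. None of the 13 measured members passed, and 2 had an unadjusted p under 0.05. Slc16a1, the lactate carrier of heart muscle, had signals of 12.75, 13.25, 12.78, 12.64 and 12.39 in knockout arrays, against 12.79, 12.78, 12.87, 12.67 and 12.76 in control arrays. The control arrays lay close together inside the wider knockout range. The difference was -0.01 (SE 0.131), with a 95% interval from -0.31 to 0.28. Slc16a3, the lactate exporter of glycolytic cells, averaged 8.55 ± 0.23 in knockout and 8.58 ± 0.14 in control hearts (SD, n = 5 each), with a 95% interval of the difference from -0.28 to 0.22. Slc16a7, a carrier with high affinity for pyruvate, averaged 4.23 ± 0.46 in knockout and 4.11 ± 0.49 in control hearts (SD, n = 5 each).

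Slc16a12, a creatine carrier of the lens and kidney, had signals of 10.46, 10.55, 10.54, 10.64 and 10.94 in knockout arrays, against 10.44, 10.31, 10.20, 10.46 and 10.21 in control arrays. The groups were apart by less than 0.01. The difference of 0.30 (SE 0.0929) did not pass (limma adjusted p = 0.118).

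Slc16a4, an orphan member, had signals of 5.07, 4.87, 5.51, 4.22 and 5.79 in knockout arrays, against 6.26, 6.58, 7.25, 5.61 and 5.07 in control arrays. Control replicates 4 and 5 lay within the knockout range. The difference of -1.06 was the largest of the set, but its SE was 0.423 and it did not pass (limma adjusted p = 0.199). Without the arrays numbered 3 it was -0.89. Its second probe set was under the Y-linked mark.

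The other Slc16 genes above the Y-linked mark did not pass either. Slc16a6 had a difference of 0.26 (SE 0.152) and the carrier of aromatic amino acids and thyroid hormone, Slc16a10, of 0.18 (SE 0.135). The carnitine carrier Slc16a9 had -0.15 (SE 0.10) and Slc16a13 had 0.03 (SE 0.103). Slc16a5, Slc16a8, Slc16a11 and Slc16a14 had group means from 1.81 to 2.82, under the mark, with differences from -0.04 to 0.09.

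Genes that act beside these carriers were described by lists chosen with earlier results of these data known. Of 16 other amino acid carriers of the Slc7 and Slc3 families, 2 rose, none fell and 14 did not pass, with a median difference of 0.056. An unadjusted p under 0.05 was reached by 5 of the 16. Over all genes 2.58% passed and 20.6% had an unadjusted p under 0.05. Beside the 2 that rose, the 5 were Slc7a5 (0.59, limma adjusted p = 0.0661), Slc7a2 (-0.33) and Slc7a4 (-0.28). Slc7a3, a carrier of cationic amino acids, had 7.31 ± 0.33 in knockout and 3.81 ± 0.47 in control hearts (SD, n = 5 each), a difference of 3.50 (limma adjusted p = 0.000441), with the control signal close to the Y-linked mark. Slc3a2, the chain that brings several Slc7 carriers to the membrane, rose 1.42-fold (limma adjusted p = 0.0114). Of 6 marks of the stress response all rose (Atf4, Ddit3, Trib3, Asns, Chac1 and Atf5), by differences from 0.56 to 2.48 with a median of 1.67; this list was picked knowing that its genes had risen.

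Of 23 measured partners and enzymes that handle the carried substrates, 3 rose, 1 fell and 19 did not pass, with a median difference of 0.00348. The differences went both ways, 12 positive and 11 negative, from -1.16 for Ckm to 0.86 for Emb. An unadjusted p under 0.05 was reached by 13 (56.5%), and 7 did not overlap between the groups. Over all genes 2.58% passed, 20.6% had an unadjusted p under 0.05 and 5.79% did not overlap. Of the creatine kinase genes, Ckm (limma adjusted p = 0.156) and Ckmt2 (0.58, limma adjusted p = 0.0967) did not pass, and Ckb had 0.00. Emb, an accessory protein that escorts Slc16 lactate carriers to the membrane, rose 1.81-fold, to 7.44 ± 0.20 in knockout hearts, against 6.58 ± 0.18 in control hearts (SD, n = 5 each, limma adjusted p = 0.0137). The other escort, Bsg, had a difference of -0.16 (SE 0.0892) and did not pass. Shmt1 and Shmt2, which convert serine and glycine, rose 1.34-fold and 1.38-fold (limma adjusted p = 0.0213 and 0.00419). Thra, a thyroid hormone receptor, fell by 0.32 on the log2 scale (SE 0.0694, limma adjusted p = 0.0465). Of 18 genes of amino acid sensing 1 rose and 17 did not pass, with a median difference of -0.0512. The one that rose was Sesn2, a leucine sensor induced by stress, which had 5.44 ± 0.37 in knockout and 4.60 ± 0.03 in control hearts (SD, n = 5 each, limma adjusted p = 0.0289).

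**Figure D5:**
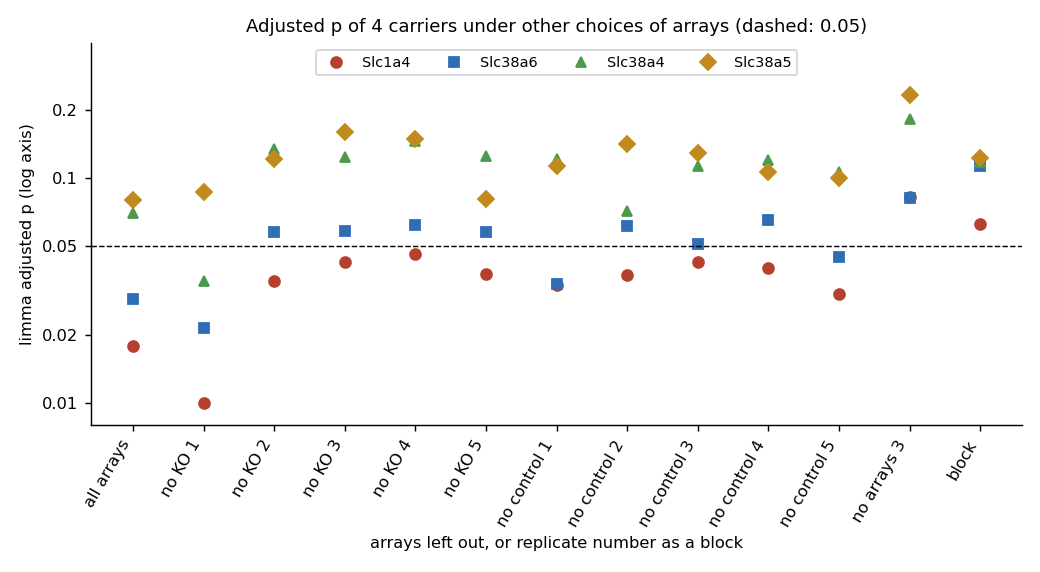
Limma adjusted p (y axis, log scale) of Slc1a4, Slc38a6, Slc38a4 and Slc38a5 with all arrays, with each array left out, without both arrays numbered 3 and with the replicate number as a block (x axis); the dashed line is 0.05. Slc1a4 stays at 0.0459 or below with any 1 array left out and is at 0.0822 without the arrays numbered 3.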

How the data were processed

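The authors deposited log2 probe set signals of 10 arrays, made with RMA and Partek per the submitters' processing notes, with no versions or background option. RMA brings the probe intensities of all arrays to a common distribution, so a change of total RNA cannot be seen. The probe set signals made from them still differed slightly between arrays, with medians from 3.65 to 3.76. Of 45101 probe sets 34945 carried 1 gene symbol in the platform annotation; 64 controls, 932 with several symbols and 9160 with none were left out. The brightest probe set by 10-array mean stood for a gene, giving 18193 genes. Genotypes came from the sample labels. The number of arrays limits the precision.

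Each gene was tested by limma (version 3.58.1, R version 4.3.3; genotype as the only term, lmFit then eBayes, two-sided, no filter on low values), with p adjusted over all genes by Benjamini-Hochberg and a threshold of 0.05. The fit was also run on simulated arrays with independent genes and no effects shared within an array, and no call here rests on it. Hccs was compared by an exact permutation test over all splits. Promoter windows came from RefSeq (GRCm38.p6). The members, the 14 lists and the motifs were chosen with earlier results of these data known. Values by array were given for carriers that passed, the brightest and the smallest p of each family, and those with a difference of 0.5 or more above the median gene level of 6.50; other such carriers were added after their values were seen. Alternatives were other scalings, level filters, probe set rules, fit options, thresholds, the replicate number as a block, and arrays left out. In comparing alternatives a difference smaller than its standard error was given no direction. Plots were drawn with matplotlib 3.10.9.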

Additional observations from a re-analysis of the deposited data

Results flagged for a closer look

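In 6 of 108 groups of 5 arrays 1 array lay far from the other 4, with a gap above 0.71 of the group's range; chance alone gives about 1 in 20 groups. Slc38a1 was at 11.88 in knockout replicate 5, against 11.51 to 11.61 in the other knockout arrays. Slc43a2 was at 4.56 in knockout replicate 2, against 5.08 to 5.18. Slc16a13 was at 6.46 in control replicate 1, against 6.07 to 6.13 in the other controls. The other 3 lay under the Y-linked mark. Slc36a2 was at 2.77 in knockout replicate 4, against 2.64 to 2.66 in the others. Slc36a3 was at 3.02 in knockout replicate 5, against 2.66 to 2.69. Slc6a2 was at 3.37 in control replicate 5, against 2.88 to 3.01 in the other controls.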

How the results depend on the processing

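The count of carriers past the threshold was 2, 1 higher and 1 lower, and it moved with the arrays kept. With 1 array left out it ran from 1 to 3, with 1 to 2 higher and 0 to 1 lower, while the count over all genes ran from 105 to 1042. Leaving out both arrays numbered 3 gave 0, and 0 in each direction, with 30 of all genes called. With the replicate number as a block it was 0, 0 higher and 0 lower, with 36 of all genes called (Slc1a4 adjusted p = 0.0625, Slc38a6 0.113). Same-numbered arrays did not deviate together (r from -0.09 to 0.08), so the numbers were not taken to pair the pools. At a threshold of 0.01 it was 0, with 0 in each direction and 14 of all genes, and at 0.10 it was 4, of which 3 higher, with 1160 of all genes. With genes filtered at the median level it was 4, of which 3 higher (Slc38a4 and Slc38a5 added), with 759 of all genes. Array weights gave 2 higher (Slc38a4 added), with 945 of all genes. Averaging probe sets per gene gave 1, with 0 lower (Slc38a6 at -0.25, adjusted p = 0.0563), and the most variable probe set gave 2 lower (Slc38a1 added). Hccs had -0.55 with an adjusted p of 0.0735 under the block, -0.59 and 0.0714 without the arrays numbered 3, -0.55 and 0.0225 against the threshold of 0.01, and -0.60 to -0.48 with 1 array left out, where it passed in 6 of 10 fits and missed without knockout replicate 2 or 4 or control replicate 2 or 3 (adjusted p = 0.0517, 0.0563, 0.0511 and 0.0511). For Slc38a9 the most variable probe set gave -0.34, but it lies under the Y-linked mark (2.86 in knockout and 3.21 in control hearts). Leaving aside the changed thresholds, 5 of 539 results of single carriers under these choices lost the call and 4 gained it. Of 540 with 1 array left out, 7 lost it and 1 gained it. The sign changed in 18 of the 539 and in 30 of the 540.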
